A study of Homo sapiens with 66 samples.

Results

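The genes described here are the Toll-like receptors TLR1 to TLR9 and their adaptor MYD88, 10 of the 57992 genes counted in an RNA sequencing study of acute myeloid leukemia (AML) cell lines. They were taken by gene symbol, as the receptor family and its shared adaptor, in a choice made with earlier results of these data known. All 10 were found under 1 Ensembl identifier each. The 11 cell lines were F36P (F-36P), HL60 (HL-60), KASUMI1 (KASUMI-1), MOLM13 (MOLM-13), MONOMAC6 (MONO-MAC-6), MV411 (MV-4-11), NB4 (NB-4), NOMO1 (NOMO-1), OCIAML2 (OCI-AML2), OCIAML3 (OCI-AML3) and THP1 (THP-1). Each was left untreated or was kept for 24 hours in etoposide, a topoisomerase II poison that leaves breaks in DNA. The dose was the IC50 of that line and therefore differs between lines. Each of the 22 groups has 3 libraries made from cells pooled over wells, and F36P was grown with GM-CSF in both conditions. A cell line is 1 clone of cells from 1 leukemia, so the 11 lines do not stand for kinds of AML. The study discarded the etoposide libraries of OCIAML2 after quality control. They are given apart, and "the 10 lines" below are the others.

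Toll-like receptors are membrane proteins of the innate immune system that bind molecules of microbes. TLR1, TLR2, TLR4, TLR5 and TLR6 act at the cell surface: TLR2 pairs with TLR1 or TLR6 to bind bacterial lipoproteins, TLR4 binds lipopolysaccharide with the help of CD14 and LY96 (MD-2), and TLR5 binds flagellin. TLR3, TLR7, TLR8 and TLR9 sit in endosomes, where they bind double-stranded RNA, single-stranded RNA or unmethylated CpG DNA. All of these receptors except TLR3 signal through MYD88, which recruits the IRAK kinases and TRAF6 and so leads to NF-kappaB and to inflammatory cytokines. Monocytes carry most of the surface receptors as well as TLR8, and TLR7 and TLR9 are best known from plasmacytoid dendritic cells and B cells.

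Reads on genes numbered 17997404 to 24101670 per library (median 20241014), so 1 read corresponds to about 0.05 CPM (reads on a gene scaled to library size). The myeloid genes PTPRC, CD33 and SPI1 each had at least 1 CPM in all 22 groups. The 7 monocytic markers CD14, CSF1R, FCGR1A, LYZ, CD68, ITGAM and CD163 summed to 6.79 to 9.28 CPM in untreated HL60, where CD68 and CD163 had 0 reads, and to 5139 to 5214 CPM in untreated OCIAML2, most of it LYZ. The 6 erythroid markers summed to 5700 to 8009 CPM in untreated F36P. In the untreated libraries of the 10 other lines the same sum was at most 33.9 CPM. The 3 T cell markers summed to 163 to 195 CPM in untreated NOMO1 and to at most 6.93 CPM in the other untreated libraries. By the monocytic sums, the lines ranged from very few to abundant monocytic transcripts. Of the monocytic markers, CD14 alone was examined for exons shared with other genes, so a count of 0 for another marker may not mean absence.

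On GRCh38, TLR1 (ENSG00000174125.7, chr4:38790677-38856817, minus strand) and TLR6 (ENSG00000174130.12, chr4:38822897-38856817, minus strand) overlap. Their exons share 57 bases, and 1 of the 10 annotated TLR1 transcripts begins at the same base as both TLR6 transcripts. TLR2 (ENSG00000137462.6, chr4:153684070-153706260) and TLR3 (ENSG00000164342.12, chr4:186068911-186088073) lie on the same chromosome on the plus strand. TLR7 (ENSG00000196664.4, chrX:12867072-12890361) and TLR8 (ENSG00000101916.11, chrX:12906620-12923169) are neighbours on the plus strand of chromosome X. TLR4 (ENSG00000136869.13) is at chr9:117704175-117724735 (plus), TLR5 (ENSG00000187554.11) at chr1:223109404-223143248 (minus) and MYD88 (ENSG00000172936.12) at chr3:38138552-38143024 (plus). TLR9 (ENSG00000239732.3, chr3:52221080-52225645, minus) shares 3341 of its 3352 exonic bases with another annotated gene on the same strand, ENSG00000173366, which had 0 reads in every library. Reads that fall on both are not counted for either, so the level of TLR9 cannot be read from these counts.

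The start regions of the genes were read for motifs of factors that act in myeloid cells or after damage. RefSeq promoters (GRCh38.p14, 300 bases around the start) were at hand for 8 of the 10 genes. Of these, 5 are printed: TLR6, whose start is shared with a TLR1 transcript; TLR4 and TLR2, the most abundant receptors; TLR3, which appeared in NB4 after etoposide; and MYD88. They lie at chr4:38856768-38857067 (minus strand, TLR6), chr9:117704153-117704452 (plus, TLR4), chr4:153684030-153684329 (plus, TLR2), chr4:186068906-186069205 (plus, TLR3) and chr3:38138411-38138710 (plus, MYD88). Capitals mark a match on either strand to GAGGAA, an ETS core as bound by PU.1, or to the core of an interferon response element (GAAA, any pair of bases and GAAA again). A match on the minus strand reads as its reverse complement.
TLR6: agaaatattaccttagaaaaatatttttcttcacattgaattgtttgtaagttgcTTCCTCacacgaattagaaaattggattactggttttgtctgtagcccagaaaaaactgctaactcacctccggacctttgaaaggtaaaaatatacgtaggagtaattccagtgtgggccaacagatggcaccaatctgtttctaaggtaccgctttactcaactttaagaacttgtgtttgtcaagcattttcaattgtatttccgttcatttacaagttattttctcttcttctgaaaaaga
TLR4: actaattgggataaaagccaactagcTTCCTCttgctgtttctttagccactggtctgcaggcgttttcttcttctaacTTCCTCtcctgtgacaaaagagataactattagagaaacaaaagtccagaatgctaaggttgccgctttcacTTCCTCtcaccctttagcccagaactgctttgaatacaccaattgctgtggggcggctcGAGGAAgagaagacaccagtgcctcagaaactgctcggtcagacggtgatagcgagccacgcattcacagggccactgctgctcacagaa
TLR2: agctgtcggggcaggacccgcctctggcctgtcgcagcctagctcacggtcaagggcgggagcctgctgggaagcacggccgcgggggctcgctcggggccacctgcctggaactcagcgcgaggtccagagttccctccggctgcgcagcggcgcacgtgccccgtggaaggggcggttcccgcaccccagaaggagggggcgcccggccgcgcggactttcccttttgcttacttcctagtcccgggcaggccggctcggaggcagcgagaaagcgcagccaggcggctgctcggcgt
TLR3: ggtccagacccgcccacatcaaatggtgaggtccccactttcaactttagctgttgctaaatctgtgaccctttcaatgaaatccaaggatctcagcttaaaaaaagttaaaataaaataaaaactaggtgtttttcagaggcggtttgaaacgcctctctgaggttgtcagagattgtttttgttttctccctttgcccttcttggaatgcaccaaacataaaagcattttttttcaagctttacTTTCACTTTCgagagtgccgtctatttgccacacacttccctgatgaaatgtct
MYD88: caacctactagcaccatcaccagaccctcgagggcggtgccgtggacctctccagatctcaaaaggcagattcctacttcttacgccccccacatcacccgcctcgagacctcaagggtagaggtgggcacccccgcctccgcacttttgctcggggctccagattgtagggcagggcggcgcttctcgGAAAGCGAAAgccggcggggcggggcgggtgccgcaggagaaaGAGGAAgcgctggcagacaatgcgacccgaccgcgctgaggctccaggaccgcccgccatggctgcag

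Matches to GAGGAA numbered 4 in the TLR4 promoter, 1 in that of TLR6 and 1 in that of MYD88, and the letters are present in 27.9% of all 35116 promoters in the table. The core of the interferon response element was found in MYD88 (positions -61 to -52 from the start) and across the start of TLR3 (-4 to 5), against 3.57% of all promoters. None of these motifs, nor AP-1 (TGANTCA, 7.71% of promoters), the TATA box (TATAAA, 11.5%), a kappaB site (5.91%) or a p53 half-site (6.63%), was found in TLR2, TLR5 or TLR8. The TLR9 promoter held GAGGAA on each strand, TGANTCA, which matches both strands at 1 place, and TATAAA. A match is only a string of letters, and neither binding nor use of a start was measured.

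In untreated cells the adaptor MYD88 and the receptor TLR2 were the most abundant of these transcripts, and the receptors that sit in endosomes were low in most lines. Per kilobase of the canonical transcript, the median over the 11 lines was 25 CPM per kb for MYD88, 21.3 for TLR2, 1.13 for TLR4, 0.858 for TLR6 and 0.701 for TLR1. Each of the 9 genes that could be tested differed between untreated lines (edgeR F test, FDR between 1.96e-34 for TLR2 and 1.30e-10 for TLR3). Across all genes 99.4% of 18130 passed the same test, so differing between these lines was the rule. Levels in this and the next paragraphs on untreated cells were normalized over the 33 untreated libraries.

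TLR2 was either abundant or near absent. It reached 176 ± 13.1 CPM (SD, n = 3) in MONOMAC6 and 50.8 ± 1.68 CPM in MOLM13, the lowest of the 8 lines that carried it. It was at 0.226 ± 0.122 CPM in F36P, had 1 read over the 3 NB4 libraries and had 0 reads in HL60, which allows up to 0.0492 CPM there for counting error (3 reads over the 3 libraries). OCIAML2 and OCIAML3 overlapped in the order of TLR2 levels, as did KASUMI1 and MV411. All the other neighbours among the 8 lines were apart.

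The partners of TLR2 did not follow it. TLR1 was highest in OCIAML2 at 18.4 ± 0.656 CPM, followed by MONOMAC6 at 5.99 ± 0.683 CPM and MOLM13 at 4.70 ± 0.644 CPM, and these 3 lines did not overlap. It was lowest in KASUMI1 at 0.266 ± 0.0469 CPM, a line in which TLR2 was at 98.0 ± 6.12 CPM. From NB4 (3.44 CPM) down to KASUMI1, each line overlapped its neighbour in the order. TLR6 ranged from 18.3 ± 2.20 CPM in OCIAML2 to 1.43 ± 0.474 CPM in MV411. HL60 and NB4, which lacked TLR2, held TLR6 at 2.68 ± 0.455 CPM and 6.05 ± 1.42 CPM. Over the 11 lines, Pearson's r of mean log2(CPM + 1) was 0.74 between TLR1 and TLR6, 0.32 between TLR1 and TLR2 and 0.46 between TLR2 and TLR6 (a description of 11 points).

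TLR4 was present in every line, from 47.1 ± 4.80 CPM in MONOMAC6 to 1.09 ± 0.574 CPM in F36P. HL60, the line with the lowest monocytic sum, was second in the order at 38.5 ± 4.67 CPM. The first 5 lines in the order, MONOMAC6, HL60, OCIAML3, THP1 and NOMO1, each overlapped the next, and the libraries of MOLM13 and OCIAML2 overlapped at about 14 CPM. TLR5 was above 1 CPM in OCIAML2 (3.14 ± 0.404 CPM) and MONOMAC6 (1.56 ± 0.148 CPM) and below it in the 9 other lines.

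Among the endosomal receptors, TLR8 was highest in NOMO1 at 15.7 ± 1.72 CPM, then at 6.49 ± 0.733 CPM in OCIAML2 and 5.76 ± 0.304 CPM in MONOMAC6, the latter pair overlapping. It had 0 reads in F36P, HL60, KASUMI1 and NB4. TLR7 was above 1 CPM in OCIAML2 (1.75 ± 0.375 CPM) and MONOMAC6 (1.53 ± 0.564 CPM), whose libraries overlapped. TLR3 was above 1 CPM in HL60 alone (1.32 ± 0.191 CPM), which overlapped NOMO1 (0.869 ± 0.482 CPM), and it had 0 reads in MV411 and NB4. TLR9 had 0 to 8 reads per untreated line. MYD88 ranged less than the receptors, from 121 ± 5.92 CPM in OCIAML2 to 32.5 ± 2.31 CPM in HL60.

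**Figure D1:**
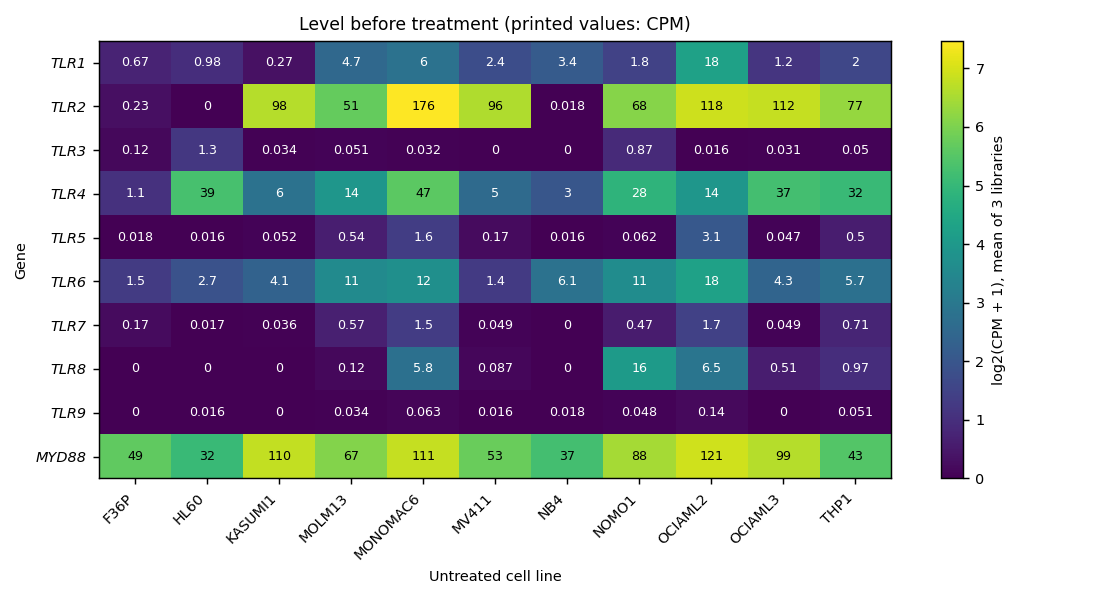
Level of each gene in each untreated cell line, in CPM, from 3 libraries per line. TLR2 falls into 8 lines between 50.8 and 176 CPM and 3 lines at or below 0.226 CPM, while MYD88 lies between 32.5 and 121 CPM in all 11.

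Of the genes whose untreated levels over the 11 lines ran most like those of each receptor, HOXA7, a homeobox gene, and CD93, a surface protein of myeloid and endothelial cells, led for TLR6 (r = 0.90 each, among 13673 genes averaging 1 CPM or more). For TLR1 the likest gene was NCEH1 (r = 0.95), a cholesterol ester hydrolase of macrophages. For TLR2 it was GAREM2 (0.96), for TLR8 GPM6B (0.95) and for MYD88 FMNL3 (0.92). These are the highest of many values over 11 points that share their libraries, and they are given as a description.

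After etoposide, 28 of the 100 pairs of gene and cell line were called higher, which takes a fold change above 2 with an adjusted p (FDR) below 0.05, and 0 were called lower. The 28 were 44.4% of the 63 pairs that were tested. Over all genes, 11.1% of the 143149 pairs tested in the 10 lines were called higher and 3.96% lower. The 28 calls were 9 for TLR1, 6 for TLR6, 4 for TLR4, 3 each for TLR7 and TLR8, 2 for TLR3 and 1 for TLR5. TLR2 and MYD88 were called in 0 lines by edgeR and by DESeq2, with an unadjusted p below 0.05 in 6 and 10 lines, and TLR9 was tested in none. Of the 100 pairs, 35 were tested and not called, and 37 had too few reads to be tested. Without the fold change minimum, 49 of the 63 tested pairs were higher and 3 lower at an FDR below 0.05, against 27.7% and 24.4% of all tested pairs. A pair can pass the filter on low counts through its etoposide libraries alone, so the counts describe these genes and are not a test of them.

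By line, calls were higher for 3 of the 4 tested members in F36P, where 24.3% of all tested genes were called higher. They were higher for 2 of 5 in HL60 (5.34%), 3 of 5 in KASUMI1 (14.6%), 2 of 8 in MOLM13 (8.59%) and 1 of 8 in MONOMAC6 (8.53%). In the other lines they were 4 of 6 in MV411 (12.5%), 4 of 5 in NB4 (13.2%), 2 of 8 in NOMO1 (8.34%), 3 of 6 in OCIAML3 (7.18%) and 4 of 8 in THP1 (6.38%). All 3 etoposide libraries lay above all 3 untreated libraries in 49 of the 63 tested pairs, and below them in 3, against 30.3% and 29.5% of all tested pairs of gene and line. The median log2 fold change of the 63 tested pairs was 0.83, and that of all tested pairs of gene and line was 0.01. Levels before and after etoposide, here and below, were normalized within each line. In these bulk libraries a change in the share of cells that carry a transcript and a change in its amount per cell cannot be told apart.

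**Figure D2:**
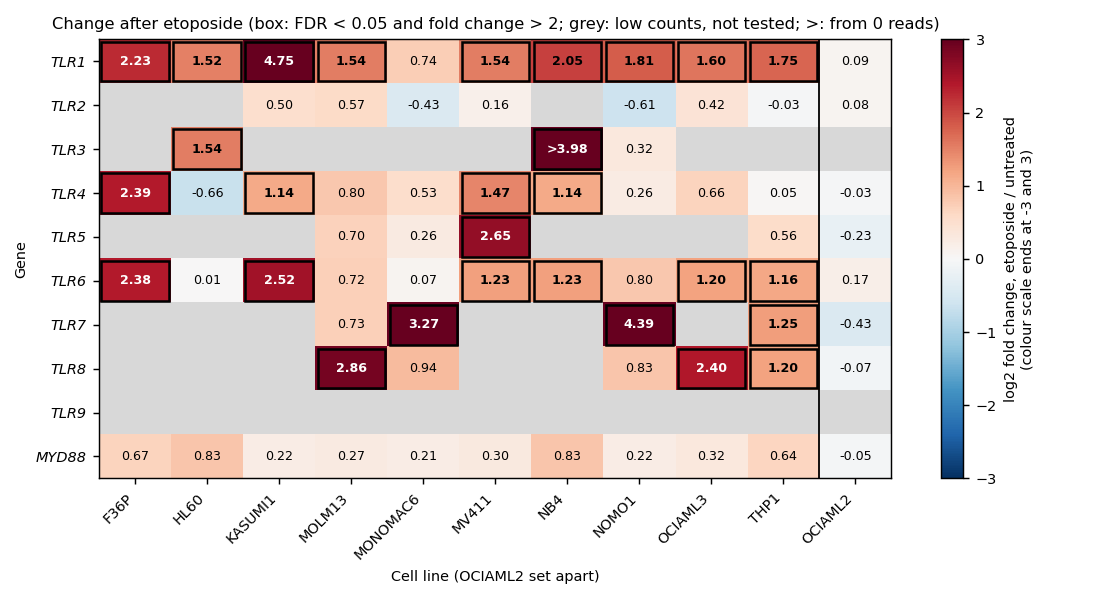
Log2 fold change after etoposide for each gene (rows) in each cell line (columns), with OCIAML2 set apart at the right. Boxes mark calls, grey cells had too few reads for a test, and the sign ">" marks a lower bound where the untreated libraries had 0 reads. The row of TLR1 is boxed in 9 of the 10 lines and the rows of TLR2 and MYD88 in none.

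TLR1, which pairs with TLR2 to bind triacylated lipoproteins, rose in 9 of the 10 lines, and its untreated and etoposide libraries did not overlap in any of the 10. The largest rise was in KASUMI1, the line with the least TLR1 before treatment, with 0.258, 0.320 and 0.224 CPM in the untreated and 9.59, 4.82 and 6.81 CPM in the etoposide libraries (log2 fold change 4.75 ± 0.38, FDR 5.56e-06). Every etoposide library of KASUMI1 thus held more than 10 times the highest untreated one. In F36P the values were 0.247, 0.766 and 1.23 CPM in the untreated and 3.55, 3.01 and 3.45 CPM in the etoposide libraries (2.23 ± 0.37, FDR 0.000465). In NB4 they were 4.28, 2.77 and 3.92 CPM in the untreated and 17.5, 14.7 and 13.5 CPM in the etoposide libraries (2.05 ± 0.17, FDR 9.73e-08). NB4 did so with 0 reads of TLR2, the partner of TLR1, in its etoposide libraries.

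The 6 other lines in which TLR1 was called rose by log2 fold changes of 1.52 to 1.81. In NOMO1 the libraries held 2.31, 1.49 and 2.0 CPM in the untreated and 5.28, 8.71 and 6.26 CPM in the etoposide libraries. In THP1 they held 1.77, 2.22 and 2.18 CPM in the untreated and 6.63, 5.39 and 8.74 CPM in the etoposide libraries, and in MV411 2.05, 3.00 and 2.61 CPM in the untreated and 8.05, 7.02 and 7.15 CPM in the etoposide libraries. In all 3 lines the lowest etoposide library held more than 2 times the level of the highest untreated one. In OCIAML3 TLR1 was at 0.881, 0.977 and 1.82 CPM in the untreated and 4.34, 4.20 and 2.69 CPM in the etoposide libraries, and in HL60 at 1.42, 0.874 and 0.908 CPM in the untreated and 3.43, 2.62 and 3.15 CPM in the etoposide libraries. MOLM13 started higher, with 4.02, 4.53 and 5.19 CPM in the untreated and 13.5, 12.3 and 13.5 CPM in the etoposide libraries (1.54 ± 0.13, FDR 7.12e-06). The exception was MONOMAC6, at 7.17, 5.77 and 6.04 CPM in the untreated and 11.8, 10.3 and 9.43 CPM in the etoposide libraries, where the change was 0.74 ± 0.12, FDR 0.000206, past the FDR and short of the fold change minimum.

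TLR6, the other partner of TLR2, which takes part in binding diacylated lipoproteins, rose in 6 lines. In KASUMI1 it was at 4.70, 4.01 and 3.52 CPM in the untreated and 26.9, 18.3 and 22.4 CPM in the etoposide libraries (2.52 ± 0.17, FDR 2.57e-06). In F36P it was at 1.17, 1.24 and 2.51 CPM in the untreated and 8.98, 7.80 and 7.27 CPM in the etoposide libraries (2.38 ± 0.27, FDR 5.24e-05). These were the lines in which TLR1 rose the most as well. The rises in MV411, NB4, OCIAML3 and THP1 were close to each other, at log2 fold changes of 1.23, 1.23, 1.20 and 1.16. The libraries of OCIAML3 held 4.26, 4.20 and 4.44 CPM in the untreated and 10.9, 9.21 and 9.63 CPM in the etoposide libraries. Those of THP1 held 6.84, 5.26 and 5.65 CPM in the untreated and 14.1, 10.8 and 14.8 CPM in the etoposide libraries, and those of NB4 5.34, 5.82 and 8.18 CPM in the untreated and 16.6, 13.6 and 15.2 CPM in the etoposide libraries. The conditions did not overlap in these lines, nor in MV411 (1.42, 1.07 and 2.08 CPM untreated and 4.58, 3.15 and 3.16 CPM after etoposide).

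TLR6 was also past the FDR in MOLM13 (0.72 ± 0.13, FDR 0.00122) and NOMO1 (0.80 ± 0.12, FDR 0.000117), below the fold change minimum. HL60 and MONOMAC6 overlapped between conditions. HL60 held 2.88, 3.39 and 2.44 CPM in the untreated and 3.17, 2.99 and 2.64 CPM in the etoposide libraries (0.01 ± 0.20, FDR 0.971), whereas its TLR1 rose by 1.52 on the same scale. Since the sequences of TLR1 and TLR6 share 238 stretches of 50 bases, 8.49% of those in the TLR1 transcript and 3.58% of those in TLR6, a small share of reads could come from either gene, and reads on the 57 shared bases count for neither.

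TLR2 itself was not called in any line. It was tested in 7, with log2 fold changes from -0.61 to 0.57, and was past the FDR in 6 of them, 4 of which went up. In NOMO1 it was at 78.7, 76.9 and 67.8 CPM in the untreated and 45.1, 48.9 and 52.1 CPM in the etoposide libraries (-0.61 ± 0.09, FDR 0.000198). In MONOMAC6 it was at 201, 173 and 185 CPM in the untreated and 141, 131 and 142 CPM in the etoposide libraries (-0.43 ± 0.06, FDR 6.02e-05). In these lines every etoposide library lay below every untreated one. In MOLM13, by contrast, it was at 51.8, 48.8 and 47.8 CPM in the untreated and 87.9, 63.5 and 64.8 CPM in the etoposide libraries (0.57 ± 0.12, FDR 0.00236), with the etoposide libraries all above. KASUMI1 (0.50 ± 0.09, FDR 0.000735) and OCIAML3 (0.42 ± 0.09, FDR 0.00512) moved the same way as MOLM13. F36P, not tested for low counts, went from 0.247, 0.118 and 0.390 CPM to 1.89, 0.444 and 1.33 CPM. HL60 had 0 reads of TLR2 in all 6 libraries, and NB4 had 1 read in 1 untreated library.

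**Figure D3:**
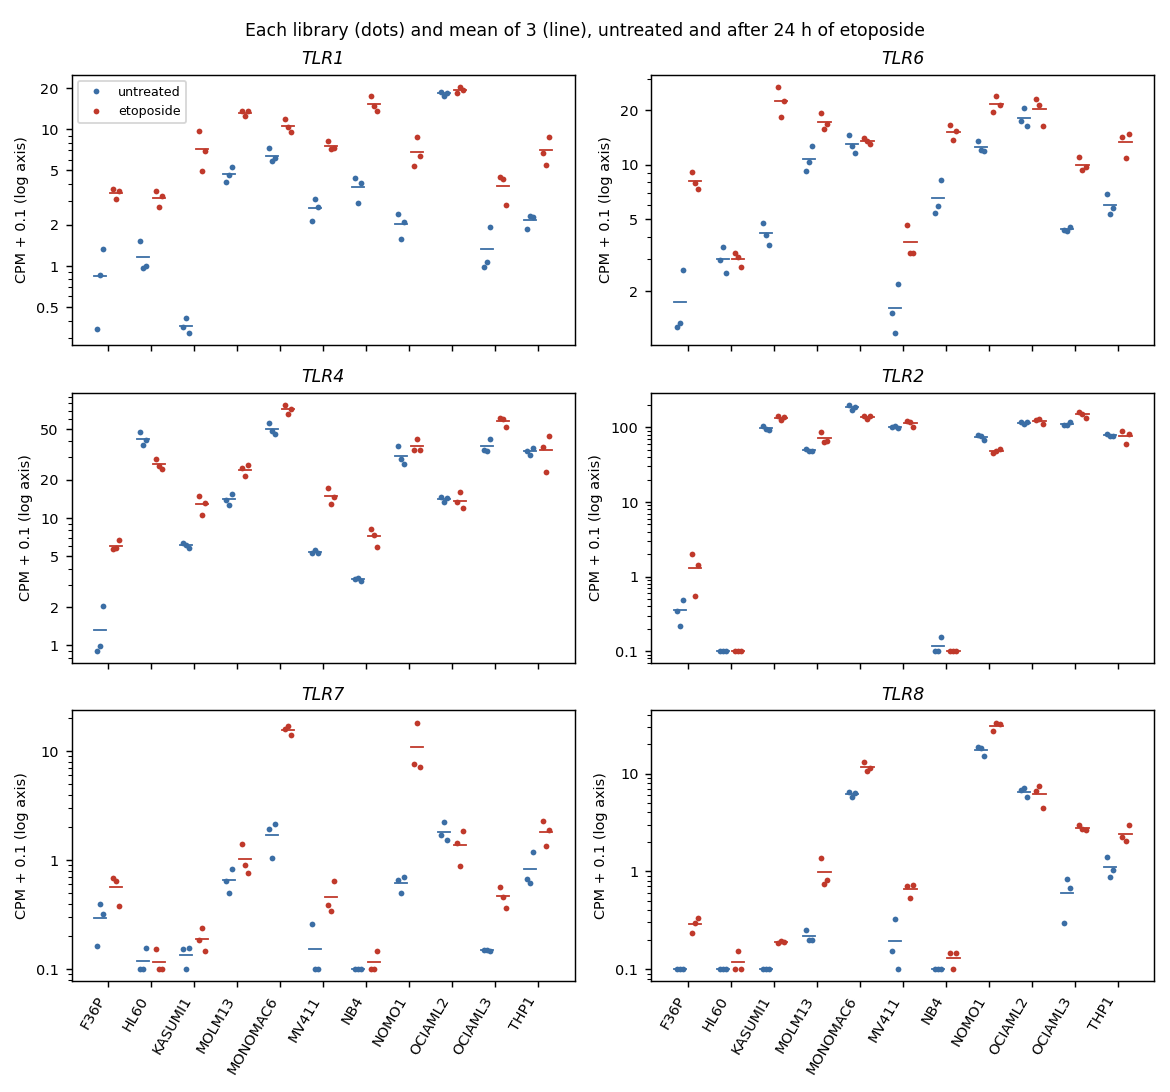
TLR1, TLR6, TLR4, TLR2, TLR7 and TLR8 in every library of the 11 lines, in CPM plus 0.1 on log axes. Blue dots are untreated libraries, red dots etoposide libraries, and short lines the means of 3. The red dots of TLR1 lie above the blue in each of the 10 lines and meet them in OCIAML2, while TLR7 reaches 15.5 CPM in MONOMAC6 and 10.9 CPM in NOMO1.

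TLR4, the lipopolysaccharide receptor, was called higher in the 4 lines that had the least of it. In F36P it was at 0.802, 0.884 and 1.95 CPM in the untreated and 5.61, 5.77 and 6.58 CPM in the etoposide libraries (2.39 ± 0.30, FDR 7.88e-05). In MV411 it was at 5.21, 5.54 and 5.26 CPM in the untreated and 17.1, 12.9 and 14.6 CPM in the etoposide libraries (1.47 ± 0.12, FDR 1.24e-09). In KASUMI1 and NB4 it was called with 1.14 and 1.14, from 6.05 ± 0.271 to 12.8 ± 2.20 CPM and from 3.21 ± 0.0740 to 7.09 ± 1.19 CPM. The conditions were apart in all 4. HL60, which stood high before treatment, went the other way, with 47.5, 37.2 and 40.9 CPM in the untreated and 29.3, 25.7 and 24.1 CPM in the etoposide libraries (-0.66 ± 0.12, FDR 0.000950), not past the fold change minimum. MOLM13, MONOMAC6 and OCIAML3 were higher by 0.80, 0.53 and 0.66, past the FDR (0.000146, 0.000151 and 0.00134) but short of the fold change minimum. Their conditions were apart as well, and MONOMAC6, with the most TLR4 before treatment, went from 49.8 to 71.4 CPM. In NOMO1 and THP1 the conditions overlapped.

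Transcripts of the proteins that present lipopolysaccharide to TLR4 rose in lines in which TLR4 was called and in lines in which it was not. LY96, which binds lipopolysaccharide in the TLR4 complex, was called higher in 7 lines. TLR4 was called as well in NB4 (LY96 from 0.0357 to 2.06 CPM), F36P (from 0.412 to 3.67) and MV411. It was not called in HL60, MOLM13, MONOMAC6 and NOMO1 (LY96 from 2.36 to 11.3 CPM in NOMO1). In KASUMI1, where TLR4 was called, LY96 had 0 reads before etoposide and 0.338 CPM after it. CD14, which hands lipopolysaccharide to that complex and is itself a monocytic marker, was called in MONOMAC6 (from 24.4 to 166 CPM), THP1 (from 7.43 to 44.6), OCIAML3 (from 5.23 to 20.7) and NOMO1 (from 0.293 to 0.714). In NOMO1 the CD14 call was lost with DESeq2 (FDR 0.0809). TLR4 was called in none of these 4 lines. The difference between CD14 and TLR4 in this respect was not tested.

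TLR5, the flagellin receptor, was called in MV411, at 0.263, 0.226 and 0.0521 CPM in the untreated and 1.31, 1.28 and 0.873 CPM in the etoposide libraries (2.65 ± 0.43, FDR 1.40e-05). The conditions were apart, at 10 reads over the untreated and 85 over the etoposide libraries. MOLM13, MONOMAC6 and THP1 were tested and not called, with FDRs of 0.163, 0.258 and 0.258.

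TLR7, an endosomal receptor for single-stranded RNA, rose the most in NOMO1 and MONOMAC6. In NOMO1 it went from 0.564, 0.397 and 0.595 CPM to 7.52, 18.2 and 7.07 CPM (4.39 ± 0.44, FDR 8.18e-06). In MONOMAC6 it was at 1.84, 0.945 and 2.06 CPM in the untreated and 16.0, 16.8 and 13.9 CPM in the etoposide libraries (3.27 ± 0.18, FDR 3.55e-08). One etoposide library of NOMO1 lay well above the other two, and all of them lay above the untreated range. In THP1 the rise was smaller, at 0.574, 0.515 and 1.09 CPM in the untreated and 2.17, 1.24 and 1.79 CPM in the etoposide libraries (1.25 ± 0.33, FDR 0.00817). MOLM13 overlapped between conditions (0.73 ± 0.36, FDR 0.111). The 6 other lines had too few reads for a test. Among these, TLR7 held 26 reads after etoposide against 3 before it in MV411, and 24 against 3 in OCIAML3.

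TLR8, the neighbour of TLR7 on chromosome X and likewise a receptor for single-stranded RNA, was called in MOLM13, OCIAML3 and THP1. In OCIAML3 it was at 0.196, 0.733 and 0.573 CPM in the untreated and 2.90, 2.62 and 2.52 CPM in the etoposide libraries (2.40 ± 0.31, FDR 0.000520). In MOLM13 it was at 0.149, 0.0995 and 0.0979 CPM in the untreated and 1.26, 0.647 and 0.710 CPM in the etoposide libraries (2.86 ± 0.47, FDR 0.000551), and in THP1 at 1.31, 0.773 and 0.932 CPM in the untreated and 2.12, 1.93 and 2.87 CPM in the etoposide libraries (1.20 ± 0.28, FDR 0.00323). The conditions were apart in the 3 lines. NOMO1, with the most TLR8 before treatment, went from 17.3 ± 1.91 to 30.8 ± 3.24 CPM (0.83 ± 0.12, FDR 0.000106), and MONOMAC6 from 6.09 ± 0.318 to 11.6 ± 1.34 CPM (0.94 ± 0.11, FDR 1.45e-05), both short of the fold change minimum. In F36P, with 0 untreated reads, 12 reads were counted after etoposide.

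TLR3, which binds double-stranded RNA and signals through TICAM1 rather than MYD88, was called in HL60 and NB4. HL60 held 1.42, 1.65 and 1.25 CPM in the untreated and 4.36, 3.67 and 4.47 CPM in the etoposide libraries (1.54 ± 0.21, FDR 0.000157), with the conditions apart. In NB4 it had 0 reads in the untreated libraries and 0.844, 0.592 and 0.773 CPM after etoposide, 49 reads in all. That is at least 15.7-fold higher, taking 3 reads over the untreated libraries as the limit (FDR 2.63e-05). NOMO1 was tested and overlapped between conditions (0.32 ± 0.36, FDR 0.480). TLR9 was tested in no line and held 0 to 11 reads per group, a count that its overlapping gene limits.

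MYD88, the adaptor that these receptors other than TLR3 share, was not called in any line, yet it was higher after etoposide in all 10. Its log2 fold changes ran from 0.21 in MONOMAC6 to 0.83 in HL60 and 0.83 in NB4, and 9 of 10 were past the FDR. In HL60 it was at 38.1, 32.8 and 35.1 CPM in the untreated and 60.7, 61.9 and 65.1 CPM in the etoposide libraries (0.83 ± 0.10, FDR 5.51e-05). NB4 held 43.3, 35.6 and 37.9 CPM in the untreated and 71.3, 67.7 and 69.0 CPM in the etoposide libraries. In MONOMAC6, where the replicates lay close together, it was at 117, 117 and 118 CPM in the untreated and 133, 137 and 135 CPM in the etoposide libraries (0.21 ± 0.04, FDR 0.00111). The conditions overlapped in KASUMI1 alone. The 3 lines with the lowest MYD88 before etoposide, HL60, NB4 and THP1, were among the 4 with the largest log2 fold changes, the other being F36P.

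Averaged over the 10 lines, with 1 difference of log2(CPM + 1) per line, 6 of the 7 members that averaged 1 CPM or more were higher after etoposide (limma, FDR below 0.05), where 22.2% of 14065 genes were higher and 18.6% lower. The mean change was 1.41 ± 0.16 (SE, FDR 0.000111) for TLR1, positive in 10 of 10 lines. It was 0.99 ± 0.19 for TLR6 (FDR 0.00209, 10 of 10 lines), 0.46 ± 0.09 for MYD88 (FDR 0.00156, 10 of 10) and 0.54 ± 0.12 for TLR8 (FDR 0.00486, 10 of 10). TLR4 had a mean change of 0.67 ± 0.19 (FDR 0.0136, 9 of 10), and TLR7 one of 0.76 ± 0.29 (FDR 0.0497, 9 of 10). TLR7 passed narrowly, and its FDR was 0.0569 without F36P. TLR2 had a mean change of 0.14 ± 0.13 (FDR 0.400), positive in 5 of 10 lines. This scale shrinks the changes of low genes. The counts of positive lines include lines with almost no reads. TLR8 had 0 reads before and 1 read after etoposide in HL60, and 0 and 2 in NB4. TLR7 had 0 and 1 in NB4. Within single lines TLR8 had enough reads for a test in 5 of the 10 lines and TLR7 in 4.

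The size of the change differed between the lines. Each line had its own dose of etoposide, so line and dose cannot be told apart here. Of the 9 members tested, all 9 had a change that differed between the 10 lines (edgeR F test of the interaction over 60 libraries), as did 74.5% of 19974 genes. The FDR was 6.29e-13 for TLR6, 3.98e-13 for TLR4 and 2.52e-06 for MYD88. For TLR5, the weakest, it was 0.0204. The summed monocytic markers were apart and higher after etoposide in 8 of the 10 lines. Such rises were not limited to monocytic markers. The sum of the 3 myeloid markers was apart and higher in 9 lines and lower in 1. The sums of the B cell and of the T cell markers were higher in 7 lines each, most of them at low levels. The erythroid sum was higher in 5 lines and lower in 2, and that of plasmacytoid dendritic cell markers higher in 4. In KASUMI1, with the largest rise of TLR1 and TLR6, the sum went from 84.4 to 92.8 CPM to 464 to 504 CPM, with CD163 at 0 reads before etoposide, and 4 of the 4 markers tested were called higher. The sum is dominated by LYZ where LYZ is abundant. In MONOMAC6 it fell below the untreated range (4114 to 4498 CPM and 3404 to 3815 CPM) with LYZ, which went from 4269 to 3406 CPM. Of the 6 markers tested there, CD14, CSF1R (from 4.75 to 10.9 CPM), ITGAM (from 8.86 to 40.2) and CD163 (from 3.32 to 9.44) were called higher and FCGR1A lower, while TLR7 rose. In NOMO1 the sum overlapped (751 to 797 CPM and 611 to 819.9 CPM), with LYZ lower (from 518 to 347 CPM) and ITGAM higher (from 231 to 347). There 4 of the 7 markers lay higher in all 3 etoposide libraries and 2 lower, and CD14 was the 1 called, while TLR1 and TLR7 rose. The 5 granulocytic markers, genes of granule proteins such as MPO and ELANE, summed to less after etoposide, with no overlap, in HL60, KASUMI1, MONOMAC6, NB4 and NOMO1, and to more in MV411 and OCIAML3. Their mean sum went from 16846 to 4370 CPM in NB4, from 29050 to 13651 in KASUMI1 and from 2307 to 500.5 in NOMO1. In F36P the erythroid sum went from 7126 to 4089 CPM. The part of these markers in the changes of the receptors was not tested.

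The rest of the pathway was given by 57 genes in lists by role, chosen with earlier results of these data known. Of their 570 pairs with the 10 lines, 490 were tested, 125 were called higher (25.5%) and 5 lower, beside the 11.1% and 3.96% of all tested pairs of gene and line. DESeq2 called 121 of the 125 and 4 of the 5, and the calls it did not make were CD14 and SARM1 in NOMO1, CD180 in MONOMAC6, SOCS1 in OCIAML3 and CCL3 in NB4. By role, shares of tested pairs called are given without a test of the difference between roles. Too few reads for a test were found in 34 of the 100 pairs of target genes and in 1 of the 170 of kinases and ubiquitin ligases. Here too a pair can pass the filter on low counts through its etoposide libraries alone. The shares therefore describe the lists and are not a test of them. The target genes of the pathway, cytokines, chemokines and an adhesion molecule, were called higher in 50 of 66 tested pairs (75.8%, median log2 fold change 2.16). The 17 kinases and ubiquitin ligases were called higher in 9 of 169 tested pairs (5.33%) and lower in 1 (median 0.03). Co-receptors were called higher in 20 of 38 tested pairs (52.6%, median 1.02), transcription factors in 23 of 80 (28.8%, median 0.36), inhibitors in 17 of 79 with 1 lower (21.5%, median 0.27) and adaptors in 6 of 28 with 2 lower (21.4%, median 0.62). The chaperones and transporters of the receptors, UNC93B1, HSP90B1 and CNPY3, were called higher in 0 of 30 and lower in 1 (median -0.31), at an FDR below 0.05 without the fold change minimum in 2 and 16, where 27.7% and 24.4% of all tested pairs were. The median of all tested pairs of gene and line was 0.01.

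**Figure D4:**
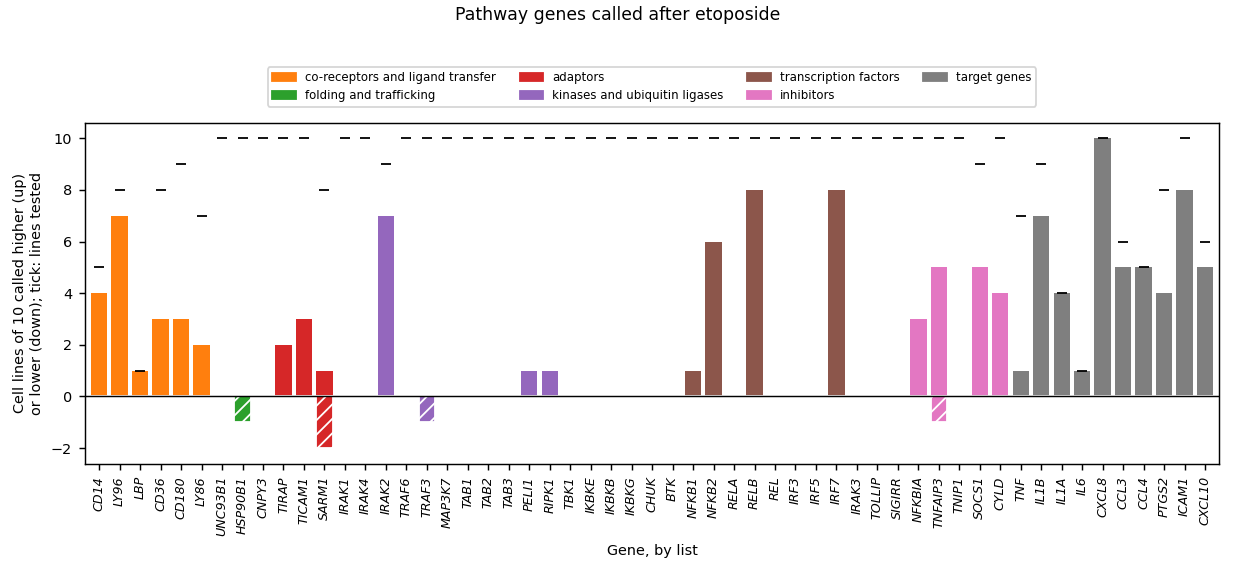
Genes of the pathway lists called higher or lower after etoposide over the 10 lines. Among tested pairs of gene and cell line, the target genes have 50 of 66 called higher, and the kinases and ubiquitin ligases 9 of 169.

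The first steps below MYD88 showed few calls. IRAK1 and IRAK4, the kinases that MYD88 recruits, and TRAF6, the ubiquitin ligase they act on, were called in 0 of 10 lines by edgeR, with log2 fold changes of -0.92 to 0.07, -0.31 to 0.71 and -0.41 to 0.37. IRAK3, an inhibitor of that step, was called in 0 lines as well (-0.71 to 0.01). At an FDR below 0.05 with no fold change minimum, IRAK1 was past it in 6 lines, IRAK4 in 5, TRAF6 in 4 and IRAK3 in 5. DESeq2 called them in 0 lines too, and their unadjusted p by edgeR was below 0.05 in 7, 6, 5 and 6 lines. IRAK2, a related kinase that is itself induced by NF-kappaB, was the exception, called higher in 7 lines. It went from 0.468 to 3.57 CPM in MV411 (2.92) and from 5.01 to 33.2 CPM in NOMO1 (2.73).

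Among the other adaptors, TIRAP, which bridges TLR2 and TLR4 to MYD88, was called in MV411 (1.87) and NB4 (1.14). TICAM1, the adaptor of TLR3, was called in HL60 (1.57), NB4 (1.23) and NOMO1 (1.07). TLR3 was tested in 3 lines, called in HL60 and NB4 and not called in NOMO1 (FDR 0.480). The log2 fold change of TICAM1 was positive in all 10 lines and past the FDR in 9. SARM1, a negative regulator, was called lower in HL60 and NOMO1 and higher in F36P. UNC93B1, which carries the endosomal receptors out of the endoplasmic reticulum, was called in 0 lines by edgeR and DESeq2 (unadjusted p below 0.05 in 8), and in NOMO1, where TLR7 rose, its change was -0.72 (FDR 7.24e-05).

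Of the transcription factors, RELB and IRF7 were called higher in 8 lines each and NFKB2 in 6. RELB, a partner in the noncanonical NF-kappaB pathway, went from 4.53 to 59.1 CPM in HL60, and NFKB2, its other partner, from 15.5 to 123 CPM. IRF7, the interferon regulator used by TLR7 and TLR9, went from 2.47 to 25.1 CPM in F36P and from 0.772 to 8.77 CPM in KASUMI1. NFKB1, the canonical subunit, was called in HL60 alone (1.07), and its log2 fold change in F36P was -0.83. The inhibitor NFKBIA was called in 3 lines, TNFAIP3 (A20) higher in 5 and lower in NB4 (-1.27), and the cytokine signalling inhibitor SOCS1 higher in 5.

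CXCL8, the chemokine interleukin-8, was called higher in all 10 lines, from 139 to 365 CPM in OCIAML3, the smallest rise, and from 15.6 to 484 CPM in HL60, the largest. In HL60 TLR2 had 0 reads, and TLR4 went from 41.9 to 26.4 CPM. Whether any receptor had a part in the rise of CXCL8 was not tested. ICAM1, an adhesion molecule, was called in 8 lines, IL1B in 7, and the chemokines CCL3, CCL4 and CXCL10 in 5 each. IL1B went from 2.36 to 42.0 CPM in NOMO1, but in F36P from 28.0 to 17.9 CPM (-0.54). TNF was called in HL60 alone (2.47). TLR10, the remaining human receptor of the family, had at most 0.359 CPM in any group of the 10 lines and was not tested.

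In OCIAML2 the libraries labelled etoposide could not be told from the untreated ones. Of its 8 tested members, 0 were called by edgeR or by DESeq2, 0 had an unadjusted p below 0.05, and the conditions overlapped for 8 of the 10 members. Over all genes 0 of 13604 were called (0% higher), and 3 were past the FDR alone. TLR1 was at 18.8, 17.4 and 18.4 CPM in the untreated and 18.2, 20.3 and 19.4 CPM in the etoposide libraries, and TLR6 at 17.3, 20.4 and 16.4 CPM in the untreated and 22.9, 21.3 and 16.3 CPM in the etoposide libraries. CXCL8, called in each of the 10 lines, was at 45.3 and 51.4 CPM. These libraries give no measure of the response of OCIAML2 to etoposide.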

How the data were processed

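Poly(A) RNA libraries of 11 AML cell lines, 66 in all, were analysed as counts. Per the methods, the authors mapped reads with STAR (2.5.3a) to GRCh38.p7 with gencode annotation and tested with edgeR (3.20.1). What the authors deposited are raw read counts for each gene, without normalization. Which STAR column was deposited is not given in the sources used here, but reads were counted by strand, since reads are found on 470 of 716 genes that lie within an opposite-strand exon. Left out were 45 pseudoautosomal gene copies of chromosome Y, which have no reads. Names and positions came from gencode 44 on GRCh38 for 56948 of 57992 identifiers. No replicate pair agreed within sampling noise (chi-square per degree of freedom at least 2.05).

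Etoposide was compared with no treatment in each line, 3 libraries against 3, by edgeR 4.0.16 in R 4.3.3 (filterByExpr at min.count 10 and min.total.count 15, TMM, quasi-likelihood test, Benjamini-Hochberg over all genes tested). A gene was called at an FDR below 0.05 if its fold change also exceeded 2. SE is that of the log2 fold change, derived as its size divided by the square root of F. Differences between untreated lines, and between lines in the change, were F tests in edgeR. The mean change over lines was tested with limma 3.58.1 on log2(CPM + 1) for genes averaging 1 CPM or more. DESeq2 1.42.0 was an alternative, beside other filters, normalizations, the exact test of edgeR, libraries left out, and the replicate number as a block. In NB4 the numbers pair the libraries, since same-numbered deviations from the group means correlated above 0.1 in each pair (lowest 0.152). The scripts were tested on simulated data. The sample titles number the libraries as replicates, and the methods give 3 biological replicates for experiments in general. Wells were pooled, so p-values measure the spread between these libraries. Limits from 0 reads cover counting error only.

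The members and the lists of pathway and marker genes were chosen with earlier results of these data known. Pathway genes were named by role, with any called in at least 5 of the 10 lines. The 3 likest genes were ranked by Pearson's r over 11 lines, and the first is given for 5 genes. Some results, 1 of the listed marker genes among them, are not reported here. The gene ENSG00000173366 is not a member. Tables and figures used Python 3.11.15, pandas 2.3.3 and matplotlib 3.10.9. IC50 values, networks and inhibitor experiments were not analysed here.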

Additional observations from a re-analysis of the deposited data

Results flagged for a closer look

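A change after etoposide that differed between the 10 cell lines was the sole reason for a closer look, and it holds for each of the 9 members tested, beside 74.5% of all genes. The dose also differed between the lines, so line and dose cannot be told apart. In the edgeR F test of the interaction the FDR was 3.98e-13 for TLR4, 6.29e-13 for TLR6, 7.88e-09 for TLR2, 1.89e-08 for TLR1, 2.52e-06 for MYD88, 2.08e-05 for TLR7, 2.26e-05 for TLR8, 0.00531 for TLR3 and 0.0204 for TLR5. For TLR2 and TLR4 the lines differ in sign, with NOMO1 and MONOMAC6 lower in TLR2 and HL60 lower in TLR4 after etoposide. For TLR1, TLR6 and MYD88 all 10 lines have a positive log2 fold change, and the lines differ in its size.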

How the results depend on the processing

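The 28 calls were also made with RLE normalization, the exact test of edgeR and DESeq2, and library size alone gave 30. No setting lost a call that it tested. Without a filter on low counts 35 pairs were called, in 1 fit of 60 libraries 37, and with 1 library left out in each line 28 to 33. A minimum mean of 5 CPM left 13, since 15 of the pairs were then not tested, and among pairs averaging 1 CPM or more, chosen after seeing the data, 25 were called. Without the fold change minimum 49 pairs were higher and 3 lower.

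In F36P the count of 3 became 6 without a filter, 7 in the fit of 60 libraries, 1 at 5 CPM and 3 to 5 with 1 library left out. TLR2 and TLR3 joined without untreated replicate 1, and the count was also 5 without etoposide replicate 2 or untreated replicate 3. In MONOMAC6 the count of 1 became 2 with library size alone, and 1 to 2 with 1 library left out, TLR8 joining without etoposide replicate 2. At 5 CPM the counts were 0 in HL60, 1 in MOLM13, 2 in MV411, 1 in NOMO1, 1 in OCIAML3 and 1 in THP1.

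With the replicate number as a block, pairing included in NB4, 28 pairs were called, the same ones. Changes that turned sign were all small and uncalled. TLR2 in THP1 became 0.035 with library size alone and 0.017 in the fit of 60 libraries. With 1 library left out it ranged from -0.16 to 0.16 (above 0 without untreated replicate 1 or etoposide replicate 2). Under the same omissions TLR4 ranged from -0.13 to 0.31 in THP1 and from -0.15 to 0.052 in OCIAML2, TLR6 after etoposide in HL60 from -0.085 to 0.14, TLR6 after etoposide in MONOMAC6 from -0.011 to 0.17, and TLR8 from -0.23 to 0.10 in OCIAML2. Past the fold change minimum came TLR5 in MOLM13 (1.02 without etoposide replicate 2) and MYD88 in NB4 (1.04 with library size alone). The mean change of TLR7 missed the threshold in 5 of 8 settings (FDR 0.0511 to 0.188) and that of TLR4 in 1, without a minimum CPM (FDR 0.0684). The members with a differing change numbered 8 without any 1 replicate number. TLR3 dropped out without replicate 1 (FDR 0.152), and TLR5 without replicate 2 (FDR 0.0725) or replicate 3 (FDR 0.244). The cause of these shifts was not tested.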
